A study of Mus musculus with 6 samples.

Results

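The regions described here carried a listed peak of histone H3 lysine 9 crotonylation (H3K9cr) in both replicates and no listed peak of H3 lysine 9 acetylation (H3K9ac) in either. They were found by merging all peaks of the 4 deposited lists that overlapped by at least 1 bp and keeping the merged regions with a peak in both H3K9cr lists and in neither H3K9ac list. There were 801 such H3K9cr-only regions among 31127 regions in all (2.57%), and 22972 regions (73.8%) had a peak in all 4 lists. All libraries came from P19, an established mouse embryonal carcinoma line that was grown undifferentiated in MEM α with 10% fetal bovine serum. The groups were H3K9cr with 2 biological replicates, H3K9ac with 2, and input with 2, the last of which was not analysed here. Chromatin was native, that is, not crosslinked, and each mark was read with a single antibody, PTM-516 for H3K9cr and PTM-156 for H3K9ac. An antibody and its mark therefore cannot be told apart. In order of replicate, 28360 and 28345 peaks were listed for H3K9cr and 26096 and 27474 for H3K9ac. Read depth is not given in the sources used here. The presence or absence of peaks chose these regions, so their strength and the lack of H3K9ac are given as a description, and no difference between kinds of region was tested. Where a list holds no peak, the mark may still have been present below the authors' threshold.

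Crotonylation attaches a crotonyl group to the same lysine that can otherwise be acetylated, so a given H3 tail carries only one of them at that residue. Acetyltransferases such as p300 and CBP can transfer either group to histones, from crotonyl-CoA or acetyl-CoA, and both marks are found at the starts of active genes and at enhancers. Proteins with a YEATS domain bind crotonyl-lysine more tightly than acetyl-lysine, and class I histone deacetylases remove both groups.

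Promoter sequences show what kind of gene start was marked by H3K9cr alone. RefSeq start windows of GRCm38.p6, each running from 250 bases before to 50 bases after a start, were matched to the regions. Only 17 of the 777 H3K9cr-only regions on chromosomes with such windows held a listed start, and these 17 regions held 18 windows. The lines that follow give, 5′ to 3′ on the strand of the gene, the windows of the 4 protein-coding genes among them with the highest pileup percentile in the weaker replicate, then Myt1, chosen after its values were seen because it holds few CpG dinucleotides, and last, for contrast, a window of Etv5 whose start lay in a region of all 4 lists. Every CpG is in capitals. The windows lie at chr16:18052610-18052909 (Dgcr6, plus strand), chr11:72314194-72314493 (Fbxo39, plus), chr14:10453409-10453708 (Fhit, minus), chr6:119329155-119329454 (Lrtm2, minus), chr2:181763082-181763381 (Myt1, plus) and chr16:22439521-22439820 (Etv5, minus).
Dgcr6: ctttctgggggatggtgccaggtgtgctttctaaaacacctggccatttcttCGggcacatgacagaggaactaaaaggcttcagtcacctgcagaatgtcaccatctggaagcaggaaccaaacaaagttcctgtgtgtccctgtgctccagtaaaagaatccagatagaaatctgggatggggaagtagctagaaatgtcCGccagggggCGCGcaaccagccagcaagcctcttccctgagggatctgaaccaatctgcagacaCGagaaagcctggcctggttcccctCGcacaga
Fbxo39: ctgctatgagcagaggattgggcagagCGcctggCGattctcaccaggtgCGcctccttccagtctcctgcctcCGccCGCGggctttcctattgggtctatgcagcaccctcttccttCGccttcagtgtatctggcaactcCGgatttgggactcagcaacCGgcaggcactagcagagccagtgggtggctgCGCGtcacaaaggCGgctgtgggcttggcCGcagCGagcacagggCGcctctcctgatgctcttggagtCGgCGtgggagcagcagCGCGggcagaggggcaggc
Fhit: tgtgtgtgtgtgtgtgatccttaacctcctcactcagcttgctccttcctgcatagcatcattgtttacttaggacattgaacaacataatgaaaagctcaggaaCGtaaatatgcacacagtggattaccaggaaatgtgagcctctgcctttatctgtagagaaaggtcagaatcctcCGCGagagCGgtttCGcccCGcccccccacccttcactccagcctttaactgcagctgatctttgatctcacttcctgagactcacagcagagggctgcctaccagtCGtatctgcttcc
Lrtm2: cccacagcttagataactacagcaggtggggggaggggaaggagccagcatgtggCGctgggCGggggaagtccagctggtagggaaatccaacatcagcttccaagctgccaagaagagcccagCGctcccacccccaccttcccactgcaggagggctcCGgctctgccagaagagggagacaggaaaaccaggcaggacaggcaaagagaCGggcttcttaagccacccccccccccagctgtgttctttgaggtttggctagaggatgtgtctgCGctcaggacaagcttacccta
Myt1: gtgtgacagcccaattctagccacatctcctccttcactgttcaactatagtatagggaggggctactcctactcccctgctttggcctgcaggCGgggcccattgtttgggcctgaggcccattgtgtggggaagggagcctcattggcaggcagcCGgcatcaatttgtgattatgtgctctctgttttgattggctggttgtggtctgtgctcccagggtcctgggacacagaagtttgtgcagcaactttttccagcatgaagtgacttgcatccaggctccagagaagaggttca
Etv5: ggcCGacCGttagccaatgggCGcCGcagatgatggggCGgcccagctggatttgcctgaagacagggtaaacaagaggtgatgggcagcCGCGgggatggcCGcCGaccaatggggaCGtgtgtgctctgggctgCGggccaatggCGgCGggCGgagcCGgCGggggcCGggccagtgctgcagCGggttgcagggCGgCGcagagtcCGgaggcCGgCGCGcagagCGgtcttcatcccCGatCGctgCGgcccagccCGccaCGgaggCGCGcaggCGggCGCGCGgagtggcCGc

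The H3K9cr-only starts were poorer in CpG than the starts marked in all 4 lists. The windows of Dgcr6, Fhit, Lrtm2 and Myt1 held 6, 7, 6 and 2 CpG, the window of Fbxo39 held 19, and the Etv5 window held 37. Another Etv5 window, chr16:22438319-22438618, is not printed above. Its start also lay in a region of all 4 lists, and it held 19 CpG, so the printed Etv5 window is the richer in CpG. Over the 18 windows the count ran from 2 to 19 with a median of 6.5, near the median of 7 over all 32851 windows. The median was 21 over the 14623 windows whose start lay in a region of all 4 lists, and 3 over the 18210 windows in neither kind of region. The ratio of observed to expected CpG had medians of 0.297, 0.384, 0.767 and 0.201 in the H3K9cr-only windows, all windows, the windows of all 4 lists and the remaining windows. Known promoter motifs were looked for on both strands. TATAAA occurred in 1 of the 18 windows (5.56%, against 13.6% of all windows), CCAAT in 6 (33.3%, against 37.4%) and GGGCGG, which itself contains a CpG, in 7 (38.9%, against 35.7%, and 66.7% of windows of all 4 lists). These matches are descriptions of letters and not of bound factors.

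The genes behind these starts were of mixed kinds. Dgcr6, a gene of the DiGeorge syndrome critical region, ranked highest of the H3K9cr-only starts by its weaker replicate, with a pileup of 32.87 in H3K9cr replicate 1 and 26.82 in replicate 2, and its nearest region of all 4 lists was 12396 bp away. Pileup is the authors' coverage value at the summit of a peak, scaled within its own library, and is used here for ranks within a list. Fbxo39, which encodes an F-box protein, had 22.54 and 29.64. Fhit, which encodes a diadenosine triphosphate hydrolase and spans a common fragile site, had 28.17 and 20.47, and the nearest region of all 4 lists was 707099 bp away. This region held an internal start, inside the Fhit record and 708170 bp from the nearest end of a protein-coding gene. Lrtm2, a leucine-rich repeat membrane protein gene that lies within the calcium channel gene Cacna2d4, had 15.96 and 16.23. Its summits too lay inside a gene record and not at a gene end. Myt1, a zinc finger factor of neural development, had 13.15 and 13.41 in the region chr2:181763039-181763496. The regions at the 4 starts chosen by pileup thus lay anywhere from 532 bp (Lrtm2) to 707099 bp (Fhit) from chromatin listed for both marks in every library. These distances are from the regions and not from the ends of the genes.

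The replicates placed these peaks at nearly the same position. Of the 801 regions, 800 had exactly 1 peak in each H3K9cr list and 1 had 2 peaks in the second list. As merging nearly requires, the strongest peaks of the 2 replicates overlapped in all 801 regions, and both covered a median of 72.5% of their joint span. Their summits lay a median of 54 bp apart, within 100 bp in 67.3% of regions and within 250 bp in 88.8%, with a largest gap of 776 bp. The overlap of these short peaks also limits how far apart their summits can lie. In regions of all 4 lists the median gap between H3K9cr summits was 23 bp. The rank of pileup agreed loosely between replicates within the H3K9cr-only regions (Spearman's rho 0.477 over 801 regions, a description across regions of the same 2 libraries). Among all 3310 regions with H3K9cr and without H3K9ac, 1256 were listed only in replicate 1 and 1253 only in replicate 2, so 24.2% were listed in both.

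H3K9cr-only regions were short. They ran from 272 to 1823 bp, with quartiles of 358, 461 and 626 bp, 456 (56.9%) were under 500 bp and 31 reached 1000 bp. The median was 1664 bp for regions of all 4 lists, 610 bp for the 1830 regions with both H3K9cr peaks and exactly 1 H3K9ac peak, and 388 bp for the 87 regions of H3K9ac only. Altogether the 801 regions covered 419 kb of the 46567.5 kb in all regions (0.900%), and they held 2.82% and 2.83% of the peaks of the H3K9cr lists. The peaks remained shorter than peaks of like rank in regions of all 4 lists. Among H3K9cr replicate 1 peaks below the 10th, from the 10th to the 20th and from the 20th to the 30th percentile of pileup, the H3K9cr-only medians were 336, 364 and 392 bp, against 419, 554 and 686 bp in regions of all 4 lists. In replicate 2 they were 344, 371 and 387 bp against 439, 575 and 708 bp. Regions with both H3K9cr peaks and 1 H3K9ac peak were closer to the H3K9cr-only regions. Their medians in the same ranges were 362, 423 and 479.5 bp in replicate 1 and 395, 476 and 488 bp in replicate 2. The part of the overlap rule itself in these lengths was not tested.

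The 5 longest regions lay in or near genes of unlike function. The longest, chr13:98306785-98308607, was 1823 bp and reached an end of Gm21976. The next lay in Mafk, a small Maf transcription factor gene (1639 bp), in Ccdc33 (1355 bp), in the taurine transporter gene Slc6a6 (1349 bp) and near Leo1, which encodes a subunit of the PAF1 elongation complex (1300 bp). In 3 of them, those in Gm21976, Ccdc33 and Slc6a6, the length came mainly from replicate 1, whose peaks of 1731, 1241 and 1349 bp stood against 299, 560 and 521 bp in replicate 2.

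All H3K9cr-only peaks ranked low in their lists. Pileup ran from 9.39 to 54.47 with a median of 15.96 in replicate 1, and from 9.88 to 47.99 with a median of 16.23 in replicate 2. The medians of the whole lists were 66.68 and 66.34, and those of regions of all 4 lists were 98.6 and 99.51. As a percentile of the list, the median H3K9cr-only peak stood at 9.83 and 10.1, and the highest at 44.9 and 42.2. Below the 20th percentile lay 88.6% and 82.3% of the regions, and only 59 were at or above it in both replicates and 6 at or above the 30th. The authors' fold enrichment, pileup over local background, had medians of 5.19 and 4.98 in the H3K9cr-only regions against 28.5 and 27.8 in regions of all 4 lists. Their -log10 q-value reached 10 in 175 regions in replicate 1, in 184 in replicate 2, and in 90 in both.

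**Figure D1:**
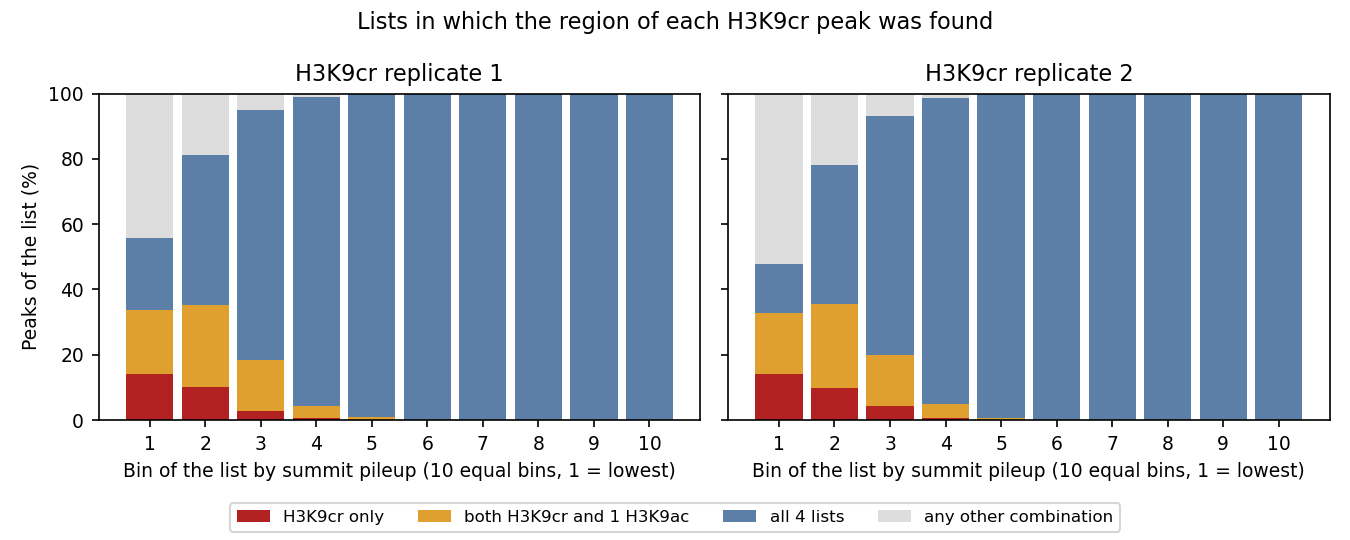
The peaks of each H3K9cr list were divided into 10 equal bins by summit pileup (x axis, bin 1 is the lowest), and the bars give the percentage of peaks (y axis) whose merged region was H3K9cr only, had both H3K9cr and 1 H3K9ac list, had all 4 lists, or had any other combination. H3K9cr-only regions make up 14.0% and 14.1% of the lowest bin in replicates 1 and 2 and 0% of bins 6 to 10.

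The share of H3K9cr-only peaks was lower in each higher bin of rank. With the list in 10 equal bins by pileup, it was 14.0%, 10.2%, 2.74%, 0.531% and 0.0355% in the lowest 5 bins of the replicate 1 list and 14.1%, 9.77%, 4.31%, 0.493% and 0.104% in those of replicate 2. In bins 6 to 10 it was 0 in both. Regions of all 4 lists made up 22.2% of the lowest bin of replicate 1 and 100% of bins 7 to 10. Pileup values moved in steps of 0.94 and 0.71, so the median H3K9cr-only peak stood 17 and 23 steps high, and the median peak of a region of all 4 lists 105 and 140. The lowest peak of any kind stood 10 and 13 steps high.

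The number of H3K9cr-only regions depended on how the lists were filtered. It was 679 with a -log10 q-value of at least 5 required in all 4 lists, and 730 and 691 when peaks up to 500 and 1000 bp apart were merged. It was 434 when each list was cut to its 26096 strongest peaks, the length of the shortest list, and 418 when only H3K9cr peaks needed that q-value. It was 496 when no H3K9ac peak was allowed within 5 kb. Leaving out a library, which also loosens the rule, gave 2088 without H3K9cr replicate 1, 2124 without H3K9cr replicate 2, 1162 without H3K9ac replicate 1 and 2293 without H3K9ac replicate 2. Of the 801 regions, 334 (41.7%) overlapped a region that met the rule with lists of equal length and 418 (52.2%) one with the stricter H3K9cr peaks.

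**Figure D2:**
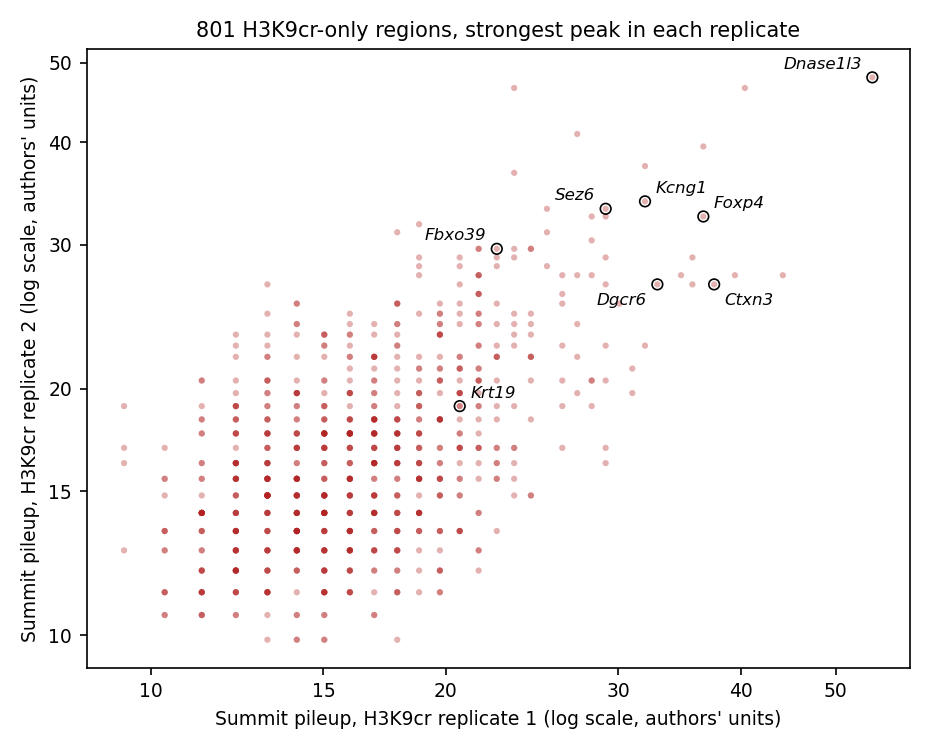
Each of the 801 H3K9cr-only regions is a point placed by the summit pileup of its strongest peak in H3K9cr replicate 1 (x axis) and replicate 2 (y axis), both on log scales in the authors' units, and darker points are several regions at the same values. Circles mark regions named by their nearest protein-coding gene, of which the one near Dnase1l3 is highest in both replicates at 54.47 and 47.99.

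The highest peaks lay mostly outside genes. The top region, chr14:7996969-7997583, was 2209 bp from Dnase1l3, which encodes a secreted endonuclease, and had pileups of 54.47 and 47.99 and fold enrichments of 11.1 and 9.80. Next came chr4:120615389-120616445 near Gm8439 (pileups of 40.38 and 46.58) and chr6:140192913-140193574, 150076 bp from Capza3 (36.62 and 39.52). The region chr17:47864229-47864606 near the forkhead factor gene Foxp4 had 36.62 and 32.46, and a peak of H3K9ac replicate 1 lay 521 bp from it. The region chr2:168252925-168253294 near Kcng1, a potassium channel subunit gene, had 31.93 and 33.87. The next regions lay near Gm6657 and inside Sez6, a neuronal membrane protein gene. Others lay at an end of Kifc5b and near Ccdc190. Of the regions named in this paragraph, all ranked above the 28th percentile in both lists, and those of Sez6 and Kifc5b lay in a protein-coding gene or within 1 kb of its ends.

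Several of these high peaks stood on a raised local background. A background was computed from the deposited values as pileup plus 1, divided by fold enrichment, minus 1. It was at least 2 times the lowest value of the library in 7 of the 10 highest regions in at least 1 library, in 25.4% and 20.3% of the 59 regions at or above the 20th percentile in both replicates, and in 11.1% and 6.99% of all 801. The corresponding shares of regions of all 4 lists were 14.1% and 8.35%. Near Dnase1l3 the background was 4.0 in both libraries, against lowest values of 1.91 and 2.03. At Kifc5b it was 1.91 and 2.04, close to the lowest, with pileups of 29.11 and 32.46. The part of this background in the missing H3K9ac peaks was not tested.

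H3K9cr-only regions were found in gene bodies and outside genes far more than at gene ends. A summit within 1 kb of either end of a protein-coding gene record counted as a gene end, since the gene table gives no strand. That held for 58 regions by the replicate 1 summit and 57 by the replicate 2 summit, a mean of 7.18% ± 0.0883 (SD, n = 2). A mean of 45.6% ± 0.0883 lay inside a record and 47.2% ± 0 outside protein-coding genes (SD, n = 2). Both summits belong to the same regions, which were chosen for a peak in both H3K9cr lists, and 800 regions had the same location by either summit. The choice of regions thus keeps this SD small, and it does not measure variation between biological replicates. The corresponding means for regions of all 4 lists were 50.02%, 27.1% and 22.9%, and for regions with both H3K9cr peaks and 1 H3K9ac peak 10.7%, 45.6% and 43.7%. H3K9ac-only regions stood at 11.5%, 36.8% and 51.7%. In each of these 3 kinds of region, gene ends held the smallest share, whereas in regions of all 4 lists they held the largest.

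**Figure D3:**
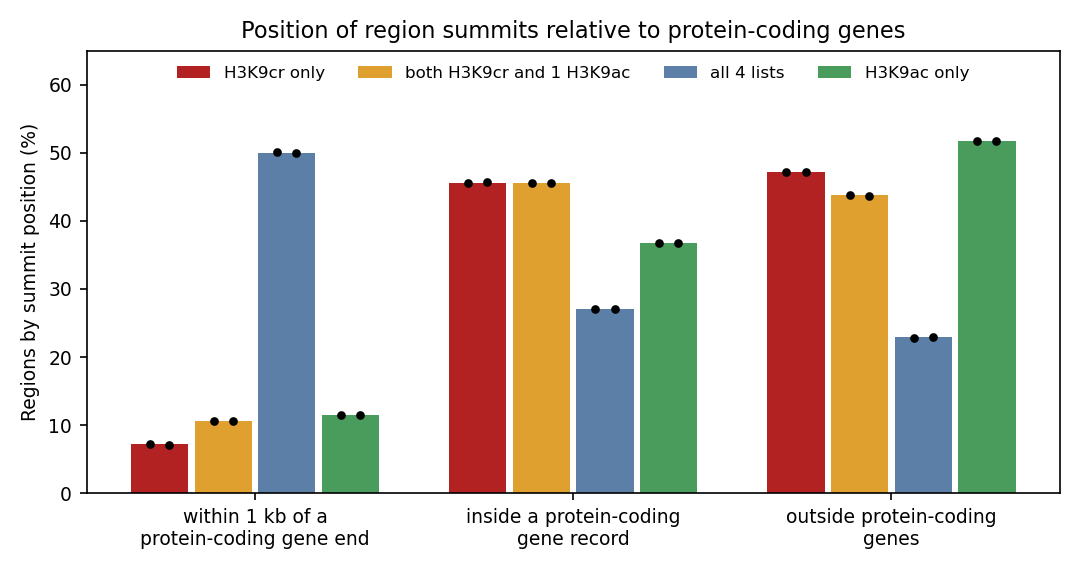
Bars give the mean percentage of regions (y axis) whose summit lay within 1 kb of a protein-coding gene end, inside a gene record or outside protein-coding genes (x axis), for 4 kinds of region, and the points are the 2 libraries of H3K9cr, or of H3K9ac for the H3K9ac-only regions. Gene ends hold 7.18% of the H3K9cr-only regions and 50.02% of the regions of all 4 lists.

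Against regions of all 4 lists, the lower share at gene ends was also seen among peaks of like rank, with a smaller gap. Below the 10th percentile of pileup, 7.93% of H3K9cr-only regions in replicate 1 (95% Wilson interval 5.73 to 10.9, n = 429) and 6.95% in replicate 2 (4.79 to 9.99, n = 374) were at a gene end. Regions of all 4 lists in that range stood at 14.6% and 15.2%. From the 10th to the 20th percentile the shares were 6.05% and 8.07% against 14.97% and 16.2%, and from the 20th to the 30th 6.67% and 5.6% against 17.3% and 16.3%. Regions with both H3K9cr peaks and 1 H3K9ac peak stood at 7.22% and 10.4% below the 10th percentile. In the next ranges they stood at 12.7% and 11.8%, then at 11.9% and 8.75%. Below the 10th percentile of replicate 1 their share was thus no higher than that of H3K9cr-only regions. Wilson intervals cover counting error only. Without matching for rank, 53 of 777 H3K9cr-only regions (6.82%) lay within 1 kb of a listed start. The share was 12.3% of regions with both H3K9cr peaks and 1 H3K9ac peak and 53.1% of regions of all 4 lists. Median distances were 18318, 13145.5 and 96 bp in that order. They run from region edges, and regions of all 4 lists were longer.

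At gene level a region counted as at an end where any part of it lay within 1 kb, whatever the place of its summits. By that rule 74 protein-coding genes had an H3K9cr-only region at an end (0.338% of 21887), and 39 of them also had a region of all 4 lists at an end. A region overlapped the record of 409 genes (1.87%). Of these 409, 320 (78.2%) had a region of all 4 lists at an end, compared with 62.0% of all protein-coding genes. Their median record was 75.5 kb long against 17.2 kb over all genes, so longer genes were more often among them. Away from gene ends, the nearest gene had a region of all 4 lists at an end for 78.1% of 743 H3K9cr-only regions and for 78.0% of 11326 regions of all 4 lists, nearly the same share.

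The gene-end regions with the highest pileup were led by Kifc5b, a C-terminal kinesin gene. At Kifc5b the region chr17:26916411-26916718 had pileups of 29.11 and 32.46 and lay 388 bp from a region of all 4 lists. It therefore adjoined chromatin listed for both marks. After Dgcr6 followed Ctxn3 (37.56 and 26.82), a cortexin gene whose nearest region of all 4 lists was 112461 bp away, and Msl1 (29.11 and 22.58), which encodes the scaffold of the MSL acetyltransferase complex. The edge of the Msl1 region lay 804 bp from the gene record, and both of its summits lay over 1 kb from any gene end. Fbxo39 came next. Cyp2f2, a cytochrome P450 gene of lung and liver, had 24.42 and 21.88 in chr7:27132850-27133181, and its nearest H3K9ac peak was 27094 bp away. The lowest of those named by the rule were Krt19, an epithelial keratin gene (20.66 and 19.05, with an H3K9ac peak no nearer than 23421 bp), Cntnap5b (18.78 and 20.47) and 4933407O12Rik (18.78 and 19.76). The regions at Dgcr6, Ctxn3, Fbxo39, Cyp2f2 and Krt19 lay over 10 kb from any region of all 4 lists, and those at Kifc5b, Msl1, Cntnap5b and 4933407O12Rik within 1 kb of one.

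H3K9cr-only regions lay about as far from chromatin listed for both marks as those regions lay from each other. The gap to the nearest region of all 4 lists ran from 101 to 1591336 bp, with quartiles of 3007, 13550 and 42631 bp. For regions with both H3K9cr peaks and 1 H3K9ac peak the median was 11962 bp, for H3K9ac-only regions 9729 bp, and from a region of all 4 lists to the next one 13515 bp. Of the 801 regions, 95 (11.9%) lay under 1 kb away, 164 (20.5%) from 1 to 5 kb, 98 (12.2%) from 5 to 10 kb, 265 (33.1%) from 10 to 50 kb, 91 (11.4%) from 50 to 100 kb and 88 (10.99%) at 100 kb or more. Each of these 6 shares lay within 3 percentage points of that of regions of all 4 lists, which were 10.2%, 19.5%, 13.9%, 35.8%, 10.9% and 9.69%.

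**Figure D4:**
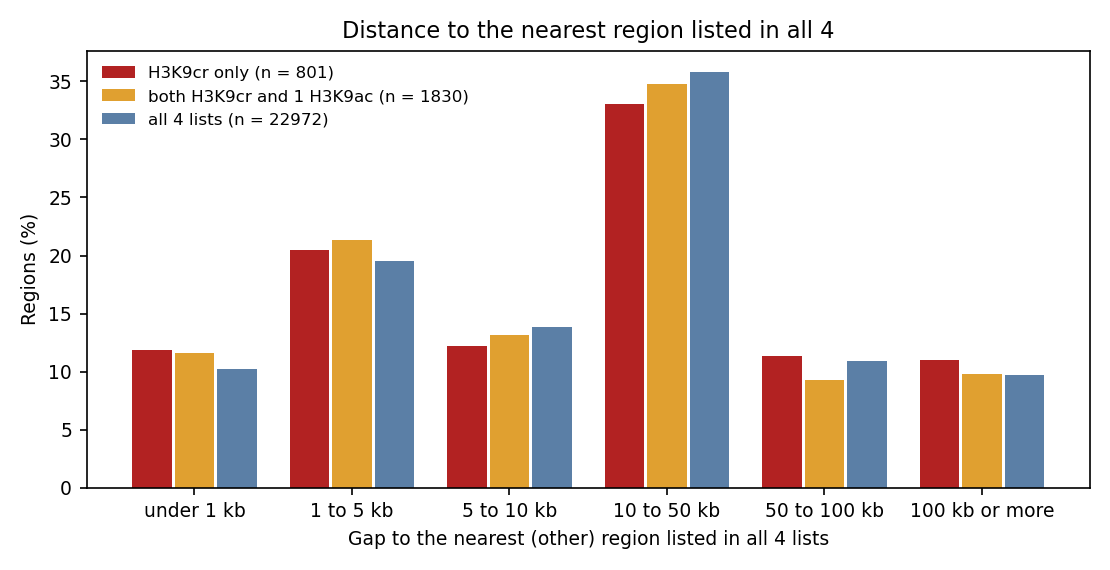
Bars give the percentage of regions (y axis) by the gap in kb to the nearest region listed in all 4 lists, or to the nearest other such region for those regions themselves (x axis), for 801 H3K9cr-only regions, 1830 regions with both H3K9cr lists and 1 H3K9ac list, and 22972 regions of all 4 lists. The 3 kinds of region have similar profiles, each highest at 10 to 50 kb, where 33.1% of the H3K9cr-only regions lie.

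The position of the regions differed with that distance. A mean of 50.02% of regions of all 4 lists lay at gene ends, so distance to one and distance to a gene are not independent. Of the 95 regions under 1 kb from a region of all 4 lists, 10.5% were at a gene end, 53.7% inside a gene and 35.8% outside, in both replicates. Of the 88 at 100 kb or more, 4.55% were at a gene end, 30.7% inside a gene and 64.8% outside. Median lengths were 437 bp in the near group and 447 bp in the far group. Median pileup percentiles were 9.83 and 8.70 in the near group and 7.86 and 11.5 in the far group, in order of replicate, so rank had no common direction. The nearest regions lay by Leo1 (chr9:75437226-75438525, 101 bp), in the bromodomain gene Brd3 (144 bp), by the fatty acid transporter gene Slc27a4 (190 bp), in the heat shock factor gene Hsf2 (199 bp) and by Irs2, an insulin receptor substrate gene (204 bp). The farthest lay in gene-poor stretches: chr5:56122451-56122767 was 1591336 bp from a region of all 4 lists and 1593378 bp from its nearest gene, the protocadherin Pcdh7, with pileups of 22.54 and 20.47. Others had Cntn5, a neural adhesion gene (1477516 bp from a region of all 4 lists), Celf2, an RNA-binding protein gene (1385404 bp), Pcdh11x (937867 bp) and Galc (854130 bp) as nearest gene.

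Just inside the rule, the region near Gm41291, chr15:34054042-34054817, lay 77 bp from a peak of H3K9ac replicate 2 and 26518 bp from one of replicate 1. Those by Leo1 (119 bp), Zdhhc21 (188 bp), Slc27a4 (190 bp) and Hsf2 (199 bp) came next. In all, 124 regions lay within 1 kb of an H3K9ac peak, and 496 (61.9%) had none within 5 kb. Just outside the rule were regions with both H3K9cr peaks and 1 weak H3K9ac peak. Near Cntrob, Gata4 and Tbc1d31 a peak of H3K9ac replicate 1 had a pileup of 8 and a -log10 q-value of 2.46, and near Caprin1 and Cds2 a peak of H3K9ac replicate 2 had a pileup of 10.74 and values of 3.17 and 3.20. Of the 1830 regions with 1 H3K9ac list, 1472 were in replicate 2 and 358 in replicate 1. That H3K9ac peak ranked low too, at a median percentile of 11.95 in replicate 2 and 8.28 in replicate 1.

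H3K9cr-only regions were scattered along the chromosomes. The nearest other H3K9cr-only region was a median of 694635 bp away, and only 33 regions fell into 16 groups with gaps under 10 kb, the largest of which had 3. That largest group lay in Etv5, which encodes an ETS transcription factor that acts in fibroblast growth factor signalling in pluripotent and germline cells. Within its record, chr16:22381313-22439570, chr16:22402243-22402632 had pileups of 18.78 and 13.41, chr16:22405709-22406077 had 20.66 and 15.53, and chr16:22406439-22406898 had 18.78 and 19.76. Another region, chr16:22348725-22349096, lay 32217 bp outside the record and had 17.84 and 21.17. The start of Etv5, at the high-coordinate end whose window with 37 CpG is given with the sequences, lay in a region of all 4 lists with pileups of 276.09 and 280.87 for H3K9cr and 192 and 282.12 for H3K9ac. Between them lay 2 further regions of all 4 lists, with H3K9cr pileups of 53.53 and 56.46 in the first and 42.26 and 37.4 in the second, and a region with both H3K9cr peaks and a peak of H3K9ac replicate 1 with a pileup of 12.

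**Figure D5:**
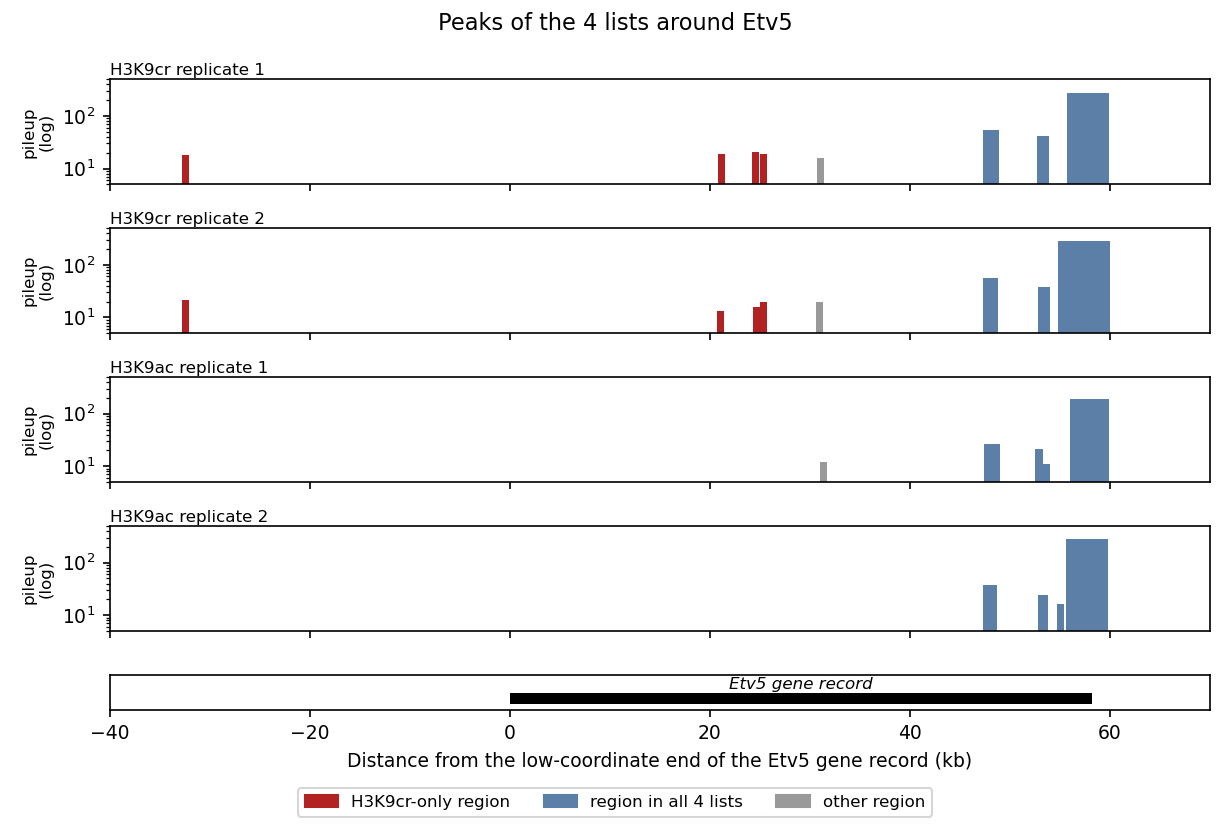
Peaks of the 4 lists are drawn around Etv5 by distance in kb from the low-coordinate end of its gene record (x axis), with bar height giving summit pileup on a log scale in the authors' units (y axis) and very narrow peaks widened to be visible. The 4 H3K9cr-only regions appear in both H3K9cr panels and in neither H3K9ac panel, and the region over the start, at the right end of the gene record, has the highest pileup in every panel.

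Other genes also had several H3K9cr-only regions in or near them. Plekha1, a phosphoinositide-binding protein gene, had 3 in its record, of which the highest, chr7:130887653-130888035, had pileups of 22.54 and 21.88 and lay 312 bp from a peak of H3K9ac replicate 2. Genes with 2 included Arhgap26, Astn2 and Bdkrb2. Rest, which encodes a repressor of neuronal genes, was the nearest gene of 3 regions 2586, 3371 and 19394 bp from its record, with pileups from 14.82 to 17.84 over both replicates. Sox2, a core pluripotency factor, was the nearest gene of 3 regions that lay 163248, 204449 and 210574 bp away, the last with 27.23 and 23.99. Ramp3 and Bcas1 were also each the nearest gene of 3 regions. These genes are nearest by distance alone, and 751 different genes were nearest to the 801 regions. Etv5, Rest, Sox2 and Ramp3 had a region of all 4 lists at an end, and Plekha1 and Bcas1 did not.

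The labelled cell type was checked by its markers. All 5 markers of undifferentiated cells, Pou5f1, Sox2, Nanog, Utf1 and Lin28a, had a region of all 4 lists at an end. So did the fibroblast markers Col1a1, Col1a2 and Thy1, but not Col3a1, the blood markers Ptprc and Hbb-bt, or the liver marker Alb. Over all protein-coding genes, 62.0% had such a region at an end. With a share that high and fibroblast markers among them, this check cannot tell the cell types apart. Lin28a, an RNA-binding protein gene of undifferentiated cells, was the only pluripotency gene of 34 with an H3K9cr-only region at an end or in its record (chr4:134003212-134003631, pileups of 20.66 and 13.41), and it lay 1617 bp from a region of all 4 lists. The part of other cell types in the regions was not tested.

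Across the gene lists, an H3K9cr-only region at an end or in the record was uncommon everywhere, as it was for 436 of all 21887 protein-coding genes (1.99%). Among 28 neural progenitor genes, the homeobox genes Lhx2 (15.03 and 13.41) and Gbx2 (11.27 and 12.7) had one. So did Slc17a6, a vesicular glutamate transporter gene (12.21 and 10.59), of 26 neuronal genes, and Grm4, a glutamate receptor gene (21.6 and 16.94), of 29 transmitter receptor genes. None of 29 voltage-gated channel genes did. Isl1 of 24 mesoderm genes, Foxa3 of 20 endoderm genes, Lsp1 of 18 blood cell genes and Stra8, a gene of meiotic entry, of 25 germline genes each had one, with pileups between 11.27 and 19.72 in replicate 1. These lists thus held at most 2 such genes each, too few to set against the share over all genes.

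Of 34 genes for enzymes, readers and metabolism of crotonylation, Crebbp and Hdac3 had an H3K9cr-only region. That is 5.88%, against 1.99% of all protein-coding genes, and again too few genes to set against that share. Crebbp encodes CBP, an acetyltransferase that can also crotonylate histones, and carried chr16:4185154-4185950 inside the gene with pileups of 22.54 and 23.99, 25448 bp from a region of all 4 lists. Hdac3 encodes a deacetylase that also removes crotonyl groups, and it shares an end region with Diaph1 (15.96 and 18.35) that lay 282 bp from a region of all 4 lists. No larger family was tested against the 1.99% over all genes. Among these families, the counts were 0 of 1110 olfactory receptor, 0 of 353 vomeronasal receptor, 0 of 101 ribosomal protein, 0 of 97 histone and 0 of 39 Hox genes. They were 3 of 397 Zfp zinc finger genes (0.756%, Zfp28, Zfp445 and Zfp385b) and 8 of 389 solute carriers (2.06%). They were 1 of 109 keratin genes (0.917%, Krt19), 1 of 99 cytochrome P450 genes (1.01%, Cyp2f2) and 2 of 44 collagen genes (4.55%). One of the collagen genes, Col8a2, had a comparatively high peak (44.14 and 27.52). The count of 20 of 97 cadherin and protocadherin genes (20.6%) came from few regions, since 18 of them are gamma protocadherin genes whose records overlap on chromosome 18 and all hold the same region, and of these Pcdhga1 also holds another. The others were Cdh1, which encodes E-cadherin (17.84 and 16.94), and Pcdh19 (19.72 and 16.94).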

How the data were processed

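H3K9cr and H3K9ac were profiled by native ChIP-seq in P19 cells, with 2 libraries each; the 2 inputs were not analysed here. Bowtie2 2.4.1, MACS2 2.2.7.1 and GRCm38 are named in the submitters' processing notes; caller options were not given in the sources used here. The authors deposited 1 peak list per library. Per the file headers, each row gives position, length, summit, pileup (a coverage signal at the summit), fold enrichment (a ratio over local background), and the peak caller's -log10 p-value and -log10 q-value. These deposited values served only for ranks, filters and descriptions inside a single list. Read depth is unknown, so no precision from depth is given.

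Peaks of the 4 lists overlapping by at least 1 bp were merged. Of several peaks of a library in a region the strongest was used. Distances are edge to edge, and a percentile is the rank of pileup within a list. Genes and start windows came from RefSeq tables of GRCm38.p6. The gene table gives no strand, so either end of a protein-coding record (within 1 kb) was used, and 17492 of 21887 protein-coding genes had a start window. Chromosome 18 had none, and its regions were left out where windows were used. Since all 4 lists chose the regions, no test was made. Shares are given with their SD over the 2 H3K9cr libraries, n = 2, or 95% Wilson intervals. That SD compares summits of the same regions and does not measure variation between biological replicates. Groups came from the labels.

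Regions and genes were named by rule: the 10 with the highest pileup percentile in the weaker replicate, overall and at gene ends, the 5 longest, the 5 nearest to and 5 farthest from a region of all 4 lists, the 5 genes with most regions, up to 4 genes per list, and the 5 just inside and outside the rule. An item that this rule takes is not reported here. The regions and gene lists were chosen with earlier results of these data known. The merging was checked on simulated lists of well separated regions, whose peaks had equal lengths and overlapped closely. There, 200 of 200 planted regions were found among 2200. This does not measure how well weak or partly overlapping peaks are recovered. Python 3.11.15, numpy 2.4.6, pandas 2.3.3, scipy 1.17.1 and matplotlib 3.10.9 were used. Alternatives varied the peak threshold, list length, merging gap, gene-end window, gene table, rank measure and libraries.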

Additional observations from a re-analysis of the deposited data

How the results depend on the processing

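Under the alternatives tried, the median pileup percentile ran from 7.29 to 16.0 and the gene-end share from 6.35% to 14.6%. Counts ran from 418 to 2293 regions and from 38 to 282 genes. The gene-end share of regions of all 4 lists was not computed under these settings. The 801 H3K9cr-only regions went to 418 with H3K9cr peaks at a -log10 q-value of at least 5, 434 with lists of equal length and 496 with no H3K9ac peak within 5 kb, and to between 1162 and 2293 when a library was left out. The number was 679 with that q-value in all lists and 730 and 691 when peaks up to 500 and 1000 bp apart were merged. The 74 genes with such a region at an end became 40, 42 and 38 under the first 3 settings, 146 with a window of 2.5 kb, 113 to 282 with a library left out, 71 with that q-value in all lists, and 64 and 59 with merging. Median length, 461 bp, was 514 bp with all lists at that q-value, 492 bp with lists of equal length, 482.5 and 491 bp when peaks up to 500 and 1000 bp apart were merged, and 329 to 532 bp with a library left out. The mean of the median pileup percentiles, 9.96, was 13.9 with the stricter q-value in all lists and in the H3K9cr lists, 16.0 with lists of equal length, 10.7 with no H3K9ac peak within 5 kb, 11.5 by fold enrichment, 10.2 by q-value, and 7.29 to 13.9 with a library left out. The gene-end share, 7.18%, was 8.76% and 7.54% with the stricter q-value in all and in the H3K9cr lists, 8.18% with equal lists, 6.64% and 6.58% with merging at 500 and 1000 bp, 6.35% with no H3K9ac peak within 5 kb, 14.6% with the wider window, 13.9% with all gene records, 7.37% by region midpoint, and 7.49% to 9.64% with a library left out. The median distance to a region of all 4 lists, 13550 bp, was 18696.5 bp with stricter H3K9cr peaks, 16991 bp with equal lists, 17208.5 and 19436 bp with merging, 29630.5 bp with no H3K9ac peak within 5 kb, and 10480 to 11889.5 bp with a library left out. The median distance to an H3K9ac peak, 9163 bp, was 11055, 12497, 11806.5, 12811, 15061 and 23960 bp in the order stricter in all lists, stricter H3K9cr lists, equal lists, merging at 500 bp, merging at 1000 bp and no H3K9ac peak within 5 kb, and 7052 to 10675 bp with a library left out. The last setting and the omission of a library change the count and the distances by construction. A wider window or more gene records can likewise only raise the gene-end share. Percentiles were ranked in the full lists, so dropping weak peaks takes out low ranks. Other causes were not tested. No paired analysis was possible because the results come from no test, and the replicate numbers were not used to pair libraries. Weak sites under the authors' threshold are missing from the lists, depth is unknown, and 2 libraries per mark limit every value.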

Other observations

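Some H3K9cr-only regions met non-coding records. A long non-coding RNA record overlapped 100 of the 801 regions, a pseudogene 5, a transcribed pseudogene 2, a snoRNA 2 and a tRNA 2, whereas 0 overlapped a miRNA record, and 315 met no gene record of any kind. One of the snoRNA regions, chr1:161037808-161038285 (pileups of 17.84 and 18.35), lay over Snord47 and its host Gas5, a growth arrest transcript, 455 bp from a region of all 4 lists. The tRNA regions lay over n-TFgaa6, 7983 bp from Osbp (19.72 and 15.53), and over n-THgtg2, in BC107364 (12.21 and 11.29).

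Among chromosomes, the share of regions that were H3K9cr only ran from 1.36% on chromosome 13 to 3.38% on the X chromosome, where 29 of 858 regions were, against 2.57% over all. On the Y chromosome it was 0 of 7 regions.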
